A study of Sus scrofa with 9 samples.

Results

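ENG, ACTA2, LYVE1 and FABP4 mark blood and lymph vessels or the cells around them, and their signals were followed in additional molar germs of the miniature pig. They are 4 of the 6765 genes that had a symbol of their own on the array. All probe sets annotated with only 1 of these symbols were taken, which gave 6 of 23999 probe sets, 1 each for ENG, ACTA2 and FABP4 and 3 for LYVE1. The genes were chosen with their signals on these arrays known, so their differences between stages are a description, with no test. The germs came from mandibles of Wuzhishan miniature pig embryos and fetuses and were dissected together with the attached dental lamina. Embryonic day 50 (E50) stands for the first additional molar at the cap stage, E60 for the bell stage, when the tooth behind it starts, and E70 for the late bell stage. All animals were of this breed and untreated as far as the labels say, and each stage had 3 arrays, 9 in all. RNA was pooled from germs of a stage, with germs taken from the same litter. The labels do not say whether the arrays of a stage came from separate litters, so p-values measure only the spread between these arrays.

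A tooth germ is supplied by vessels that grow into the dental papilla and the dental follicle, while its enamel organ is an epithelium. ENG encodes endoglin, a co-receptor for ligands of the TGF-beta and BMP families on the endothelial cells that line vessels. ACTA2 encodes the actin of vascular smooth muscle, and it is also made by myofibroblasts and by embryonic striated muscle. LYVE1 encodes a receptor for hyaluronan on the endothelium of lymph vessels and is found on some tissue macrophages as well. FABP4 encodes a carrier of fatty acids that is used by fat cells, capillary endothelium and macrophages. In whole germs, fewer cells of a type and less RNA per cell cannot be told apart.

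The E50 arrays stood apart in measures that do not depend on these genes. The 3' to 5' signal ratio of the control EF1A was between 49.3 and 55.8 on them and between 1.35 and 1.56 on all others. That of actin was between 164.5 and 2308 on the E50 arrays, between 30.1 and 34.9 on the E60 arrays and between 22.9 and 26.3 on the E70 arrays, so the later stages also differed on this control. Background, taken as the 95th percentile of 23 control probe sets, lay between 77.7 and 379 on the E50 arrays and between 37.9 and 55.8 later, and 33.9% of all probe sets were above it on every array. Pairs of E50 arrays correlated less (Pearson's r from 0.605 to 0.683 over probe sets, a description only) than pairs of E60 arrays (0.902 to 0.914) or of E70 arrays (0.901 to 0.921). Stage and array quality cannot be told apart in any difference from E50. The E60 and E70 arrays were much closer in these measures, although their actin ratios did not overlap. Among markers of the labelled tissue, VIM and POSTN of mesenchyme and EPCAM and CDH1 of epithelium were above background on all 9 arrays. Of the 7 measured dental epithelium genes, 3 to 5 were above it at E50, 4 to 6 at E60 and 6 or 7 at E70. Of the 9 measured dental mesenchyme genes, 8 or 9 were above it on each array. These genes do not by themselves identify a molar germ.

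On the brightest probe set of each, the signals of all 4 genes were highest at E50. All 4 were lower at E60 than at E50 with no overlap between the arrays, which held for 21.7% of all probe sets. ACTA2, LYVE1 and FABP4 were lower again at E70 with no overlap with E60, as were 12.4% of all probe sets, while ENG was not. All 4 were lower at E70 than at E50 without overlap, as were 19.9% of all probe sets. For 2.49% of all probe sets, and for the same 3 genes, the arrays of all stages were apart and descending. Nothing is read from these counts, because the genes were chosen on the same values.

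**Figure D1:**
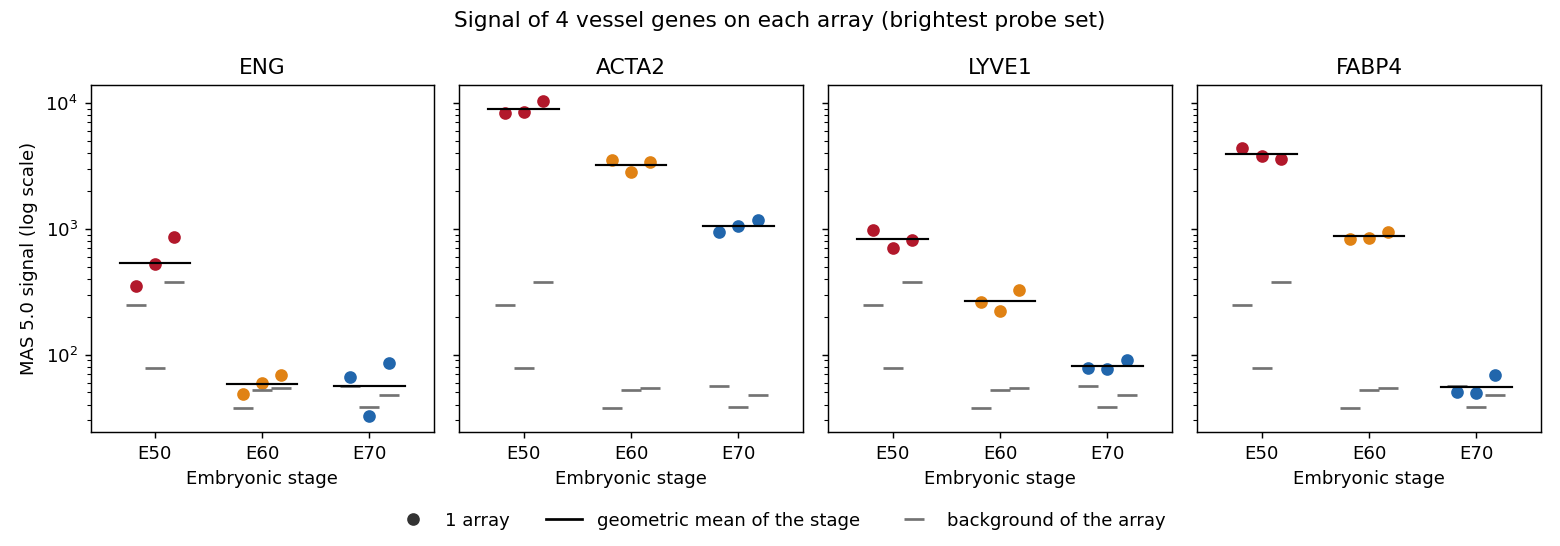
MAS 5.0 signal (log axis) of ENG, ACTA2, LYVE1 and FABP4 on each of the 9 arrays by stage, with the geometric mean of 3 arrays as a black line and the background of each array as a grey dash. ACTA2, LYVE1 and FABP4 step down at both intervals, from 8972 to 1055, from 822 to 81.8 and from 3893 to 55.7 over the whole period, whereas ENG lies near background at E60 and at E70.

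ENG had signals of 349, 521 and 857 on the E50 arrays, 48.4, 59.8 and 69.4 on the E60 arrays and 65.8, 32.4 and 85.1 on the E70 arrays. The dimmest E50 array was 5.03-fold above the brightest E60 array. From a geometric mean of 538 at E50 to 58.5 at E60 the log2 difference was -3.20 (SE 0.46, n = 3 and 3), or 9.19-fold lower. Between E60 and E70 it was -0.05 (SE 0.46), with overlapping arrays and a sign that turned when the last E60 or the middle E70 array was omitted (0.07 and 0.35). The backgrounds of the E50 arrays, 248, 77.7 and 379, were also higher than those of the later arrays. The E60 signals were close to the backgrounds of their arrays, 37.9, 52.7 and 54.4, and 1 of the E70 arrays was below its background. The 9.19-fold difference thus rests on an E60 level that is hardly measured. A decrease after E60 could hardly have been measured at this signal.

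Partners of endoglin were followed as a list of ligands, receptors, SMAD proteins and target genes, of which 11 of 22 were measured. The receptors ACVRL1 and TGFBR2, with which endoglin acts in endothelium, were not analysed here. At E60 against E50, 2 of the 11 rose, 1 fell and 8 did not pass, where 7.85% of all probe sets rose and 10.6% fell. The balance of rises and falls from E50 turned over with the scaling. In all vessel lists together 7 genes rose and 16 fell at E60, against 17 and 2 after median centring, and over all probe sets 1884 rose and 2552 fell, against 4679 and 911. At E70 against E50 the vessel lists held 7 rises and 28 falls, against 19 and 12 after median centring, and all probe sets 1959 and 2551, against 4722 and 1138. The ligand TGFB1 fell, from 792, 349 and 528 to 179, 180.0 and 209 (log2 difference -1.48, SE 0.33, limma adjusted p = 0.0217), while its other probe set, above background on 1 E50 array, gave -0.19. The receptor TGFBR1 rose, from 1340, 1501 and 578 to 3626, 4072 and 3541 (1.83, SE 0.38, adjusted p = 0.0178), although a dimmer probe set of it, above background on 1 E50 and no E60 array, fell. The ligand TGFB2 also rose, by 1.67 (SE 0.32, adjusted p = 0.0135), with its other 3 probe sets at -0.19, 0.75 and 0.60, none past the test. None of the 11 passed at E70 against E60, where 0.0833% of all probe sets rose and 0.338% fell. Over the whole interval TGFB2, TGFBR1 and ID1 rose and TGFB1 fell, with 8.16% of all probe sets rising and 10.6% falling. The other TGFB1 probe set was at 0.32 and those of TGFB2 at -0.49, 0.67 and -0.48 in this comparison. ID1, a target gene of BMP signalling, had geometric means of 3194, 4793 and 10125 through the 3 stages (E70 minus E50 1.66, SE 0.22, adjusted p = 0.00360). TGFBR3, a co-receptor related to endoglin, was above background on 1 E50 and 1 E60 array alone. Omitting any E60 array ended the E60 calls of TGFB1 and TGFBR1 (adjusted p up to 0.0792 and 0.0665), and omitting the first ended that of TGFB2 (0.0571). Their E70 to E50 calls were ended for TGFBR1 by omitting any E70 array (up to 0.0756) and for TGFB1 by omitting the last (0.0515). Median centring ended both calls of TGFB1 (adjusted p = 0.186 and 0.0759), and quantile normalization its E60 call (0.0775).

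ACTA2 had signals of 8260, 8397 and 10413 at E50, 3540, 2845 and 3378 at E60 and 943, 1059 and 1176 at E70, all far above background. The stages were separate, with gaps of 2.33-fold from the lowest E50 to the highest E60 array and of 2.42-fold from the lowest E60 to the highest E70 array. The log2 difference was -1.47 (SE 0.22) at the first step and -1.62 (SE 0.22) at the second, or 2.77-fold and 3.07-fold lower. Over both steps the signal was 8.50-fold lower.

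Other genes of contractile vessel walls did not all go with ACTA2. Of 24 listed smooth muscle and pericyte genes 17 were measured. At E60 against E50, 5 fell, 2 rose and 10 did not pass, or 41.2% called. Of all probe sets 18.5% were called, and of all genes, each on its brightest probe set, 20.9%. TAGLN, an actin-binding protein of smooth muscle, had signals of 1570, 1056 and 1812 at E50 and fell to 568, 603 and 668 at E60 (log2 difference -1.24, SE 0.26, adjusted p = 0.0191). Its E70 signals, 1333, 1131 and 1114, were above all E60 arrays without passing the test (0.96, SE 0.26, adjusted p = 0.312). MYL9, a myosin light chain of smooth muscle, likewise fell at E60 (-1.24, SE 0.26, adjusted p = 0.0192) and differed by 0.13 at E70. TPM2, a tropomyosin, had a log2 difference of -0.76 at E60 that turned to 0.02 after median centring. DES and PLN, muscle genes above background on 1 E50 array each, fell too. RGS5, a marker of pericytes, rose from 1086, 1101 and 897 to 2039, 2115 and 1806 (0.95, SE 0.21, adjusted p = 0.0225), and so did VCL, an anchor of actin filaments, by 0.90. PDGFRB, the receptor by which pericytes are recruited, had geometric means of 7203, 5959 and 7346 and passed in no comparison. At E70 against E60 none of the 17 passed. At E70 against E50, 6 fell, and VCL rose by 1.14, or 41.2% called. Of all probe sets 18.8% were called in this comparison, and of all genes 21.6%. DES, KCNJ8, TPM2, MYL9 and TPM1 fell with log2 differences from -1.99 to -0.89. No size is given for PLN, which was below background on all E60 and E70 arrays. Of the other TPM2 probe sets 1 fell at E60 (-1.27, adjusted p = 0.0141) and the rest, at -1.69 and 0.92, did not pass. Other probe sets of PLN and VCL, all below background on the E50 and E60 arrays, had the opposite sign at E60. Between E50 and E70 another probe set of TPM1 rose (1.60, adjusted p = 0.00349), as did a set of KCNJ8 that was below background on all E50 arrays.

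These calls were sensitive to single arrays and to the scaling. At E60, omitting any E60 array ended the calls of TAGLN, MYL9, RGS5 and TPM2 and those of DES, VCL and PLN (adjusted p up to 0.143). Omission of an E50 array ended those of DES and VCL (the first or last) and of PLN (the middle or last), and omission of any E70 array those of DES, VCL and TPM2. Between E50 and E70 only TPM2 of the 7 kept its call in every fit without 1 array, and the others had adjusted p up to 0.0933. The losses came without the middle E70 array for DES, without the middle or last for KCNJ8, without the first or middle for VCL, in 5 fits for MYL9 and for TPM1 and in 6 for PLN. Median centring ended the E60 calls of TAGLN, MYL9, DES and TPM2 (adjusted p = 0.225, 0.320, 0.201 and 0.967) and the E70 to E50 calls of TPM2, KCNJ8, MYL9 and TPM1 (0.185, 0.239, 0.388 and 0.596). Quantile normalization ended the E60 rises of RGS5 and VCL and the fall of DES (adjusted p = 0.0628, 0.0800 and 0.228) and the E70 to E50 calls of DES, KCNJ8 and TPM1 (0.0556, 0.0583 and 0.263).

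The other muscle actins on the array differed from each other. ACTC1, the actin of heart and of embryonic skeletal muscle, had signals of 2446, 3060 and 1746 at E50, 728, 640.2 and 732 at E60 and 80.3, 117 and 139.7 at E70. It fell by 1.75 (SE 0.31, adjusted p = 0.0106) and then by 2.67 (adjusted p = 0.0181) on the log2 scale. ACTG2, the actin of visceral smooth muscle, had 1051, 1208 and 812 at E50, 1226, 1217 and 1395 at E60 and 1108, 1416 and 1239 at E70, and its differences of 0.34 and -0.03 (SE 0.24) did not pass. ACTA1, the main actin of skeletal muscle, was not analysed here. The second call of ACTC1 ended when any E60 or E70 array was omitted (adjusted p up to 0.109) and the first after median centring (0.0995).

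LYVE1 was read by 3 probe sets that disagreed. On the brightest the signals were 980, 697 and 814 at E50, 262, 222 and 325 at E60 and 78.2, 77.0 and 91.0 at E70, all above background. The stages did not overlap on it, and the log2 differences were -1.62 and -1.70 (SE 0.25 each), or 3.08-fold and 3.26-fold lower. A dimmer probe set of LYVE1 had 28.2, 327 and 16.9 at E50, 149.6, 187 and 171 at E60 and 93.9, 112 and 76.6 at E70. It was above background on 1 E50 array and on every later one, and its first difference, 1.65 (SE 0.99), had the opposite sign, with overlapping arrays. Its second difference, -0.86, had the sign of the brightest probe set, without overlap. The dimmest of the 3 had 14.5, 291 and 238 at E50, 43.3, 52.6 and 44.0 at E60 and 24.7, 3.27 and 23.6 at E70, of which 1 E50 and 1 E60 array were above background. The lower level at E70 than at E60 was thus seen on all 3 probe sets, though 1 of them was at background. Averaged over the 3, the log2 difference from E50 to E60 was -0.36.

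**Figure D2:**
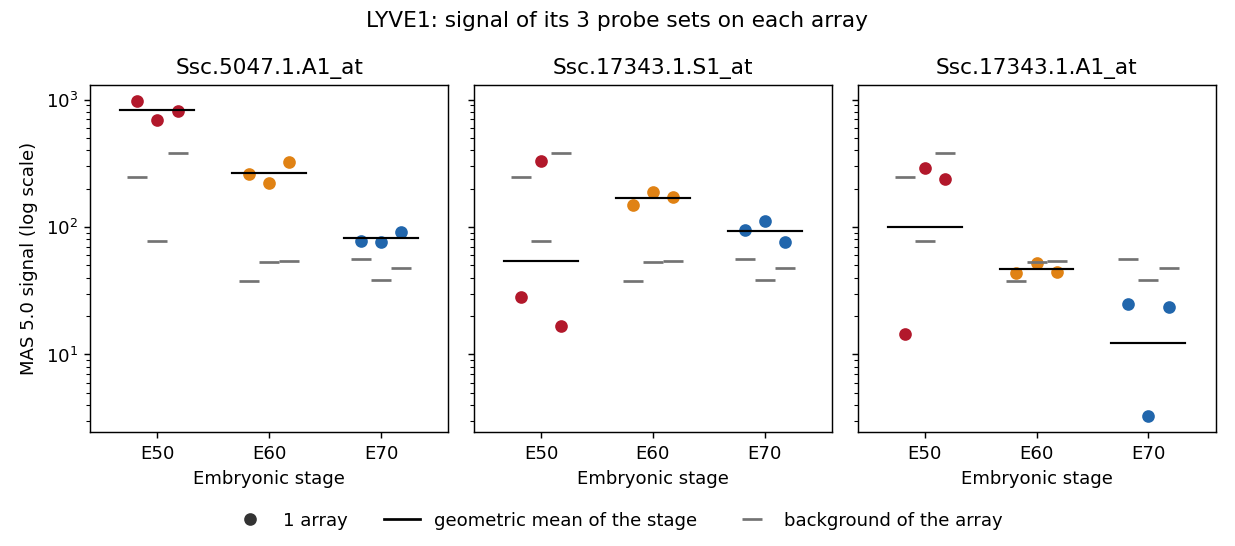
MAS 5.0 signal (log axis) of the 3 LYVE1 probe sets on each array, drawn as in the plot of the 4 genes. On the brightest probe set all arrays are above background and descend by stage, whereas on each of the other 2 only 1 E50 array is above background.

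Few other genes of lymph vessels were measured, 4 of 17 listed, and PROX1 and FLT4, the defining regulator and growth factor receptor of lymphatic endothelium, were not analysed here. By limma none of the 4 passed at E60 against E50 or at E70 against E60. PDPN, a surface protein of lymphatic endothelium that some epithelia and mesenchymal cells also carry, had signals of 1126, 941 and 1226 at E50, 648, 602 and 688 at E60 and 1288, 849 and 1426 at E70. Its E60 arrays were below all others, with differences of -0.76 and 0.85 (SE 0.27, adjusted p = 0.0881 and 0.404). CCL21, a chemokine of lymph vessels above background on 1 array of the 9, fell between E50 and E70 (adjusted p = 0.0273, with no size given). That call was ended by omitting any E70 array (up to 0.0858) and by median centring (0.0712). GATA2 had geometric means of 418, 196 and 180.3, and NRP2 was near background throughout.

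Macrophage genes moved beside LYVE1 and FABP4, which macrophages can also express. Of 16 listed genes 12 were measured, and their summed signal was 7950 to 10436 on the E50 arrays, 4364 to 4405 on the E60 arrays and 1756 to 1889 on the E70 arrays. The complement gene C1QC fell from 856, 756 and 1043 to 307, 277 and 359 and then to 92.5, 99.1 and 91.0 (log2 differences -1.49 and -1.73, SE 0.23, adjusted p = 0.00667 and 0.0309). MRC1, the mannose receptor, differed by -0.83 and -1.86 (adjusted p = 0.0373 and 0.0182). Between E50 and E70, 8 of the 12 fell, or 66.7% where 10.6% of all probe sets and 14.3% of all genes fell. C1QA, which was below background at E50, rose. CD14 and ITGAM, markers of the lineage, were below background on all E60 and E70 arrays. The second calls of C1QC and MRC1 ended when any E60 or E70 array was omitted (adjusted p up to 0.167). The first call of MRC1 ended likewise, and without the first E50 array as well (up to 0.128). Median centring ended the first calls of both (adjusted p = 0.0571 for C1QC and 0.874 for MRC1), and quantile normalization also ended that of MRC1. The part of macrophages in the LYVE1 and FABP4 signals was not tested.

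FABP4 had the widest range of the 4 genes. Its signals were 4354, 3758 and 3605 at E50, 823, 848 and 950.5 at E60 and 50.3, 49.6 and 69.3 at E70. The dimmest E60 array was 11.9-fold above the brightest E70 array. The log2 difference was -2.16 (SE 0.23) from E50 to E60, or 4.46-fold lower, and -3.97 (SE 0.23) from E60 to E70, or 15.7-fold lower. In the order of all 23999 probe sets by the second difference FABP4 stood at place 32 from the lowest, LYVE1 at 734, ACTA2 at 824 and ENG at 10130. Over both steps its signal was 69.9-fold lower. The E70 signals were near background, with 2 of 3 arrays above it, so the folds against E70 rest on a level that is hardly measured.

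Relatives of FABP4 did not follow it as a family. FABP5, found in epithelium, capillary endothelium and macrophages, had signals of 5475, 6404 and 5018 at E50, 2927, 2738 and 3245 at E60 and 996, 1066 and 1014 at E70. It passed at both steps, with log2 differences of -0.92 and -1.53 (SE 0.21, adjusted p = 0.0231 and 0.0357). Its other probe set gave -0.09 and -2.23 (adjusted p = 0.870 and 0.0427), so the first of these steps was seen on 1 of the 2. FABP7, a member known from brain and glia, fell from 821, 693 and 760.2 at E50 to 86.0, 101 and 34.2 at E60 (-3.50, SE 0.43, adjusted p = 0.00341). FABP3, the member of heart and muscle, had geometric means of 956, 849 and 642 and did not pass. The list of fatty acid binding and fat cells had 22 measured genes of 25. At E60 against E50, 3 of them fell, 1 rose and 18 did not pass, or 18.2% called. This share was like the 18.5% of all probe sets and the 20.9% of all genes. CEBPB, a transcription factor, was the other that fell (-1.04), and GPD1, an enzyme of glycerol metabolism below background at E50, was the 1 that rose. At E70 against E60 FABP5 alone fell, where 0.338% of all probe sets and 0.606% of all genes fell. At E70 against E50, 5 fell, FABP7, FABP5, CFD, LPL and CEBPB, and GPD1 rose. This was 27.3% called, beside 18.8% of all probe sets and 21.6% of all genes. The defining genes of fat cells were low. ADIPOQ was below background on all 9 arrays, and PPARG, the regulator of fat cell formation, was above it on 2 E50, 1 E60 and 1 E70 array. The calls of FABP5 ended at E60 when any E60 array was omitted (adjusted p up to 0.0919) and at E70 against E60 when any array of these stages was (0.191). That of CEBPB at E60 ended without any E60 or E70 array (0.130), and at E70 against E50 those of CEBPB without any E70 array (0.0596) and of LPL without the middle or last (0.0562). Median centring ended the E60 calls of FABP5 and CEBPB (adjusted p = 0.721 and 0.469), the E70 to E60 call of FABP5 (0.0870) and the E70 to E50 calls of CEBPB and LPL (0.107 and 0.0739). Quantile normalization ended the E60 call of CEBPB (0.0838) and the E70 to E50 call of LPL (0.157).

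Endothelial genes were measured for 30 of 41 listed. Of these, 5 fell, 1 rose and 24 did not pass at E60 against E50, or 20.0% called. Of all probe sets 18.5% were called, and of all genes 20.9%. The list's median log2 difference was -0.52, where that of all genes was -0.18. GJA5, a gap junction protein of arterial endothelium, fell from 918, 869 and 935 to 393, 199 and 292 (-1.68, SE 0.29, adjusted p = 0.00988). PROCR, EGFL7, RAMP2 and AQP1 fell as well (-1.49, -1.12, -1.06 and -1.03), a receptor for protein C, a secreted factor, a receptor subunit and a water channel. TFPI, an inhibitor of coagulation, was below background at E50 and rose to 170.2, 141 and 139. After median centring none of the 5 falls passed (adjusted p from 0.0847 for GJA5 to 0.591 for AQP1), and quantile normalization ended that of PROCR (0.199). Omitting any E60 array ended the calls of PROCR, RAMP2 and AQP1, omitting the middle E50 array those of PROCR and AQP1, omitting the first or last E70 array that of AQP1, and omitting the first or last E60 array that of EGFL7 (adjusted p up to 0.117).

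On their brightest probe sets PECAM1 and CDH5, widely used markers of endothelium, overlapped between E50 and E60, where ENG did not. PECAM1, an adhesion molecule between endothelial cells, had signals of 1558, 1255 and 1220 at E50, 1522, 1579 and 1422 at E60 and 844, 765 and 863 at E70. Its first difference was 0.17 (SE 0.21, adjusted p = 0.592), and its E70 arrays were below both other stages without passing against E60 (-0.87, adjusted p = 0.226). CDH5, the cadherin of endothelial junctions, had 1245, 971 and 806 at E50, 1146, 1300 and 1132 at E60 and 491, 835 and 550.4 at E70, with differences of 0.26 and -0.97 (SE 0.29, adjusted p = 0.550 and 0.369). TEK, a receptor for angiopoietins, had 660.5, 687 and 521, then 478, 422 and 418, then 178, 216 and 168, and fell between E50 and E70 (-1.73, SE 0.23, adjusted p = 0.00328). KDR and VWF on their brightest probe sets were below background on 2 of the 3 E50 arrays and passed in no comparison. Another VWF probe set, below background on all E50 and E60 arrays, was called lower at E60 (adjusted p = 0.0183). The other PECAM1 probe set was above background on 1 E50 array and on all E60 arrays. It was higher at E60 than at E50 without overlap and did not pass (2.54, SE 0.94, adjusted p = 0.10). That of CDH5, below background on all E50 arrays, gave 1.64 with overlapping arrays (adjusted p = 0.33). Whether ENG differed from PECAM1 or CDH5 in its change was not tested.

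Between E60 and E70 the fit of all 9 arrays called 0.421% of probe sets. The 6 vessel lists held 100 measured genes besides the 4, and 3 of these were called, S1PR1, CXCL12 and FABP5, all of which fell. S1PR1, a receptor for sphingosine 1-phosphate on endothelium, had 1843, 1228 and 1619 at E50, 1830, 1537 and 1769 at E60 and 452, 465 and 605 at E70, so that its E50 and E60 arrays overlapped and the fall came at the second step (-1.76, SE 0.25, adjusted p = 0.0425). CXCL12, a chemokine made by cells around vessels, went from 7112, 8033 and 6502 to 4312, 3783 and 3442 and then to 1163, 935 and 1121 (-0.91 and -1.84, SE 0.22, adjusted p = 0.0288 and 0.0199). At E70 against E60 the other probe sets of S1PR1 gave -1.24 and -1.26 and did not pass (adjusted p = 0.12 and 0.22). That of CXCL12 gave -0.86 and did not pass either (adjusted p = 0.21). Each of the 3 calls at this step ended when any E60 or E70 array was omitted (adjusted p up to 0.208) and after median centring, and that of S1PR1 after quantile normalization as well (0.0680). The fit without the E50 arrays called 1.75% of all probe sets (0.975% lower and 0.775% higher) and 8 vessel genes. CXCL12, S1PR1, FABP5, ERG, THBD and TEK fell in it, and EFNB2 and HEY2, arterial genes of ephrin and Notch signalling, rose. ERG, a transcription factor of endothelium, fell by 1.58 in that fit (SE 0.22, adjusted p = 0.0440), and THBD, the endothelial receptor of thrombin, fell by 1.47 (SE 0.22, adjusted p = 0.0493). HEY2 rose from 643, 738 and 656 at E60 to 1565, 1602 and 1662 at E70 (1.25, SE 0.13, adjusted p = 0.0254).

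**Figure D3:**
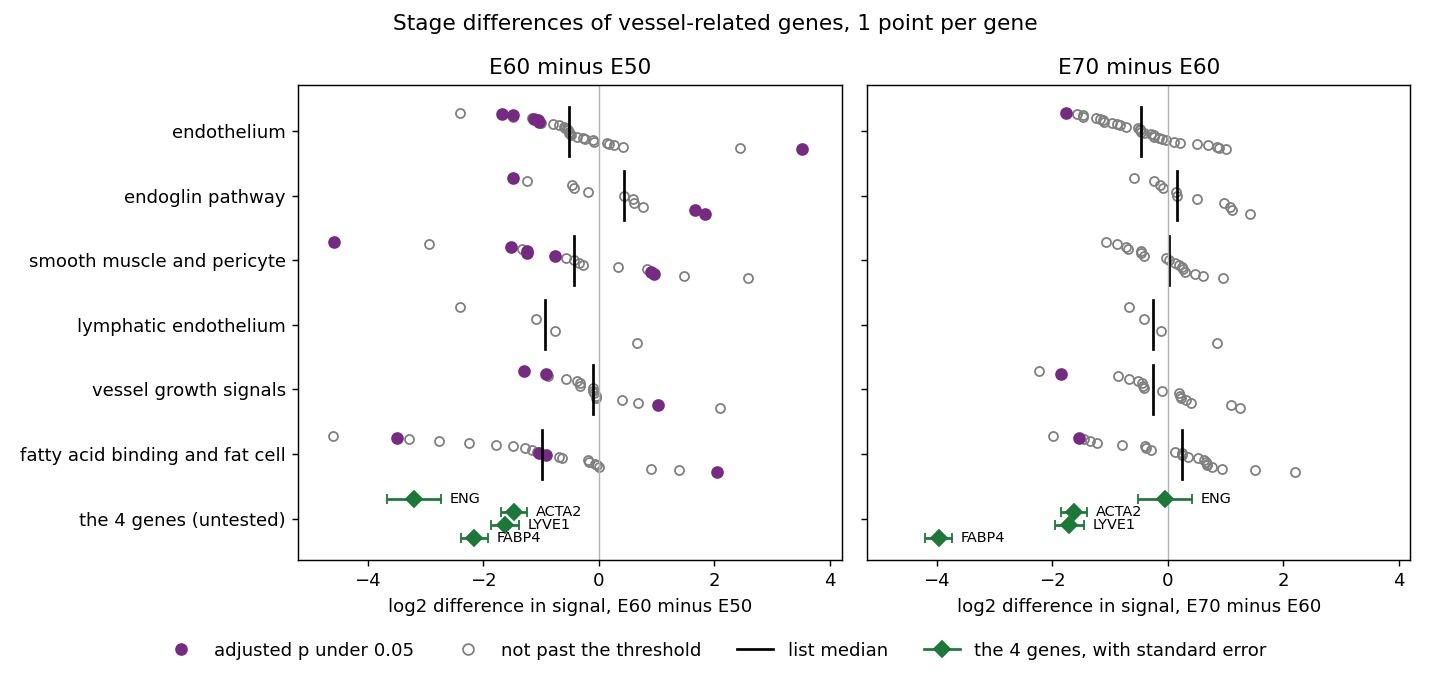
Log2 difference in signal (x axis) of each measured gene in 6 vessel lists, 1 point per gene on its brightest probe set, filled where limma's adjusted p was under 0.05, with the list median as a black line and the 4 genes with standard errors as diamonds at the bottom. At E60 minus E50 the endothelial median is -0.52 and ENG lies at -3.20, and at E70 minus E60 FABP4 lies at -3.97.

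Over the whole interval 12 of the 30 endothelial genes fell and 1 rose, or 43.3% called. Of all probe sets 18.8% were called, and of all genes 21.6%. GJA5, MCAM, THBD and PROCR had the largest falls, at -2.41, -2.28, -2.16 and -1.97, and kept their calls in every fit without 1 array. The other MCAM probe set gave -0.53 and did not pass (adjusted p = 0.233). Median centring ended 7 of the 12 falls, those of PROCR, ERG, S1PR1, ECSCR, AQP1, EGFL7 and LMO2 (adjusted p from 0.0528 to 0.375), and quantile normalization those of PROCR and ERG (0.0616 and 0.0775). TFPI was the gene that rose. Growth signals for vessels were measured for 16 of 26 listed. At E60 against E50, CXCL12 and ADM, a vessel-widening peptide, fell and HIF1A, the oxygen-regulated transcription factor, rose by 1.02 (SE 0.28, adjusted p = 0.0445), with 3 dimmer probe sets below 0. At E70 against E50, CXCL12, ADM and the Notch ligand JAG1 fell and HEY2 rose. The called share of this list was 18.8% at E60 against E50 and 25.0% at E70 against E50. Of all probe sets 18.5% and 18.8% were called in these comparisons, and of all genes 20.9% and 21.6%. VEGFA, the main growth factor for endothelium, had signals of 2445, 2411 and 1908 at E50, 1580, 1737 and 2063 at E60 and 1532, 1256 and 1179 at E70 on its brightest probe set, which passed in no comparison (E70 minus E50 -0.77, SE 0.23, adjusted p = 0.0592). Of its other 3 probe sets 2 rose and 1 fell at E60 against E50, so no direction is given. At E60 the call of HIF1A ended when any E60 or E70 array was omitted, that of ADM in addition without the middle E50 array, and that of CXCL12 without any E60 array or the final E70 array (adjusted p up to 0.136). At E70 against E50 ADM lost its call without the final E70 array (0.0578), HEY2 without any E70 array (0.0651) and JAG1 in 7 fits (0.117). Median centring ended the E60 calls of CXCL12 and ADM (adjusted p = 0.760 and 0.221) and the E70 to E50 call of JAG1 (0.836, log2 difference -0.09). Quantile normalization ended the E60 calls of ADM and HIF1A (0.0708 and 0.0594) and the JAG1 call (0.0746). Of the other JAG1 probe sets at E70 against E50, 1 fell (-1.86, adjusted p = 0.00311) and 1, at 0.67, did not pass (adjusted p = 0.549). Of the 35 vessel calls between E50 and E70, 19 were kept in every fit without 1 array and 16 were lost after median centring.

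Lists of other cell types were summed on the same arrays. Striated muscle, 11 of 16 genes measured, gave 7091 to 11572 on the E50 arrays, 2573 to 2823 on the E60 arrays and 699.6 to 716 on the E70 arrays. Between E50 and E70, 7 of the 11 fell, or 63.6% where 10.6% of all probe sets and 14.3% of all genes fell. The call of MYH2 among these ended after quantile normalization, with a floor of 16 and in several fits without 1 array (adjusted p up to 0.138). The regulator MYOD1 was below background on all 9 arrays on its brightest probe set and above it on 1 E50 array on the other. Endothelium gave 21172 to 22227, then 15786 to 17524, then 10562 to 11549. Smooth muscle and pericyte genes gave 49008 to 51031, then 47691 to 48018, then 36810 to 42127. Dental epithelium, 7 of 13 measured, was highest at E70, with 4007 to 5869, then 3835 to 4332, then 9564 to 10325. Dental mesenchyme, 9 of 12 measured, gave 158432 to 169824, then 122288 to 128043, then 80778 to 117282. Of red blood cell genes 4 of 15 were measured, and HBB, a globin, rose at E60 (1.59, SE 0.31, adjusted p = 0.0148). That call was ended by omitting the first or the last E60 array (up to 0.0626). The other 3 did not pass at E60, and the list's median log2 difference was -0.51. Between E50 and E70, 1 of the 4 rose and 1 fell, where 8.16% of all probe sets rose and 10.6% fell. The list's median was then -2.24. The part of these cell types in the signals of the 4 genes was not tested.

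**Figure D4:**
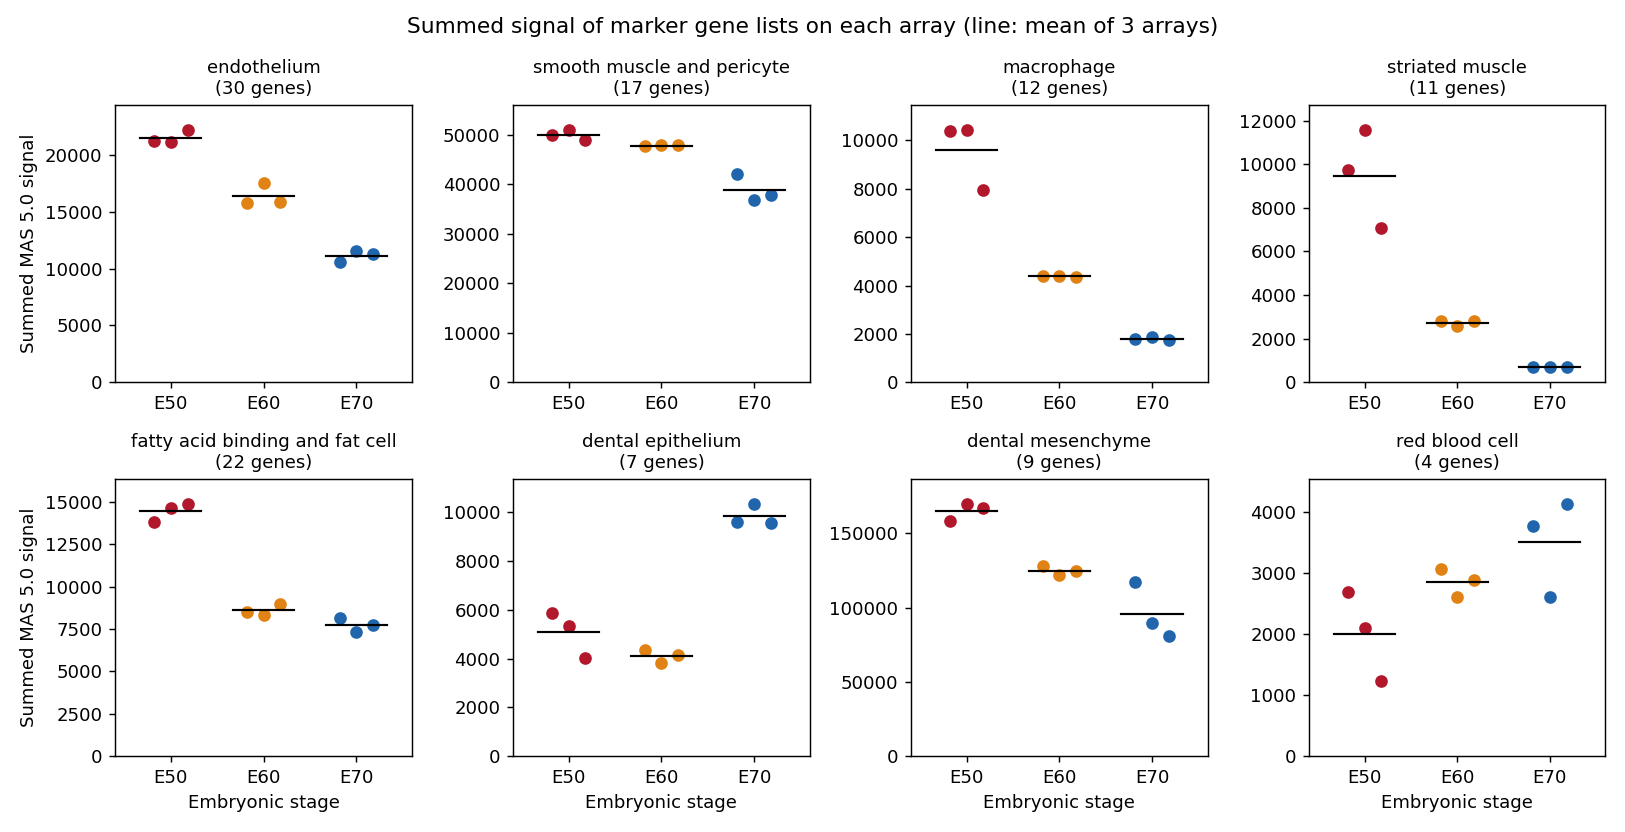
Summed MAS 5.0 signal of 8 marker lists on each array by stage, from 0, with the mean of 3 arrays as a line. Macrophage and striated muscle sums descend at both steps, to 1756 to 1889 and 699.6 to 716 on the E70 arrays, whereas the dental epithelium sum is highest at E70.

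Profiles over the 9 arrays were compared by the root mean square difference of log2 signals, each gene centred on its own mean, among 4663 genes at or above the median signal. Nearest to ENG were genes of ribosomal proteins, RPS27 at 0.44, RPS18, RPS21 and RPS29, followed by TM4SF5 at 0.52. RPS27 had geometric means of 441247, 45533 and 44978, so it was flat after E60. ENG also differed little after E60, but near background, where a decrease could hardly have been measured. ACTA2 and LYVE1 were 0.21 apart, and the macrophage gene C1QC was nearest to both, at 0.13 from ACTA2 and 0.17 from LYVE1. TMEM100, an endothelial gene, was among the 5 nearest of each and had geometric means of 723, 319 and 78.7. LY96, which serves the endotoxin receptor, was also near both, as were TNNC2, a skeletal muscle troponin, for ACTA2 and C4H1orf54 for LYVE1. FABP4 was nearest to MGP, at 0.17. MGP encodes matrix Gla protein, an inhibitor of calcification made by vascular smooth muscle and cartilage, and it had geometric means of 38947, 9686 and 558. SLPI, SCRG1, MYLPF and ACTC1 followed at 0.53 to 0.76. FABP4 was 1.22 from LYVE1, 1.31 from ACTA2 and 1.72 from ENG, and ENG was 0.89 from ACTA2 and 0.91 from LYVE1. These distances are a description over arrays that differ between stages in the control measures given above.

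**Figure D5:**
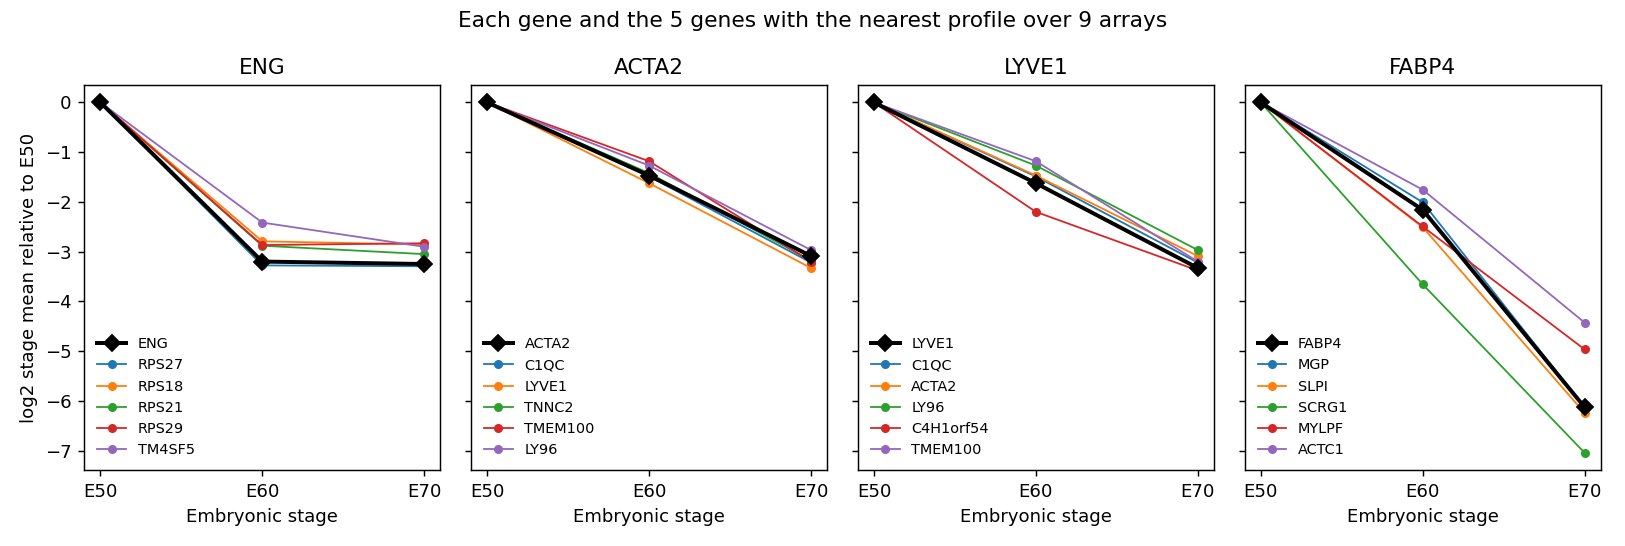
Stage means of log2 signal relative to E50 (y axis) for each of the 4 genes, in black, and the 5 genes nearest to it over 9 arrays. The ribosomal genes are flat after E60, and so is the line of ENG, whose signal is near background there. ACTA2 and LYVE1 descend at both steps, to -3.09 and -3.33, and FABP4 descends most at the second step, to -6.13.

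The scaling of the arrays bore mainly on the steps from E50. Relative to the median of all probe sets, which was -0.18 from E50 to E60 and 0.05 from E60 to E70, the differences of ENG, ACTA2, LYVE1 and FABP4 were -3.02, -1.29, -1.45 and -1.98 at the first step and -0.10, -1.67, -1.76 and -4.02 at the second. Centring each array on its median shifted all first-step differences by 0.77 and all second-step differences by -0.07. The first differences then became -2.43, -0.69, -0.85 and -1.38, all still below 0.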

How the data were processed

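Additional molar germs were profiled on Affymetrix porcine arrays. The authors used GeneSpring to obtain 1 MAS 5.0 intensity for each probe set, and the deposited values are linear, with a trimmed mean of 500.1 on all arrays. Genome build and detection calls are not given in the sources used here. Values under 1 were set to 1, log2 was taken and 124 array controls were set aside, which left 23999 probe sets. Symbols came from the platform annotation, and each gene was read on its probe set of highest mean signal. Shares of lists and of all genes thus count 1 probe set per gene. Shares of all probe sets count every one, also those with no symbol. Stages were taken from the labels. All 9 arrays entered 1 limma 3.58.1 fit in R 4.3.3, Benjamini-Hochberg adjustment covered the whole table, and an adjusted p under 0.05 was a call. The fit was run on simulated data in which each probe set had the same spread at all stages. The wider spread of the E50 arrays was not simulated, so this run does not show how the fit handles it. Figures used Matplotlib 3.10.9 under Python 3.11.15. The number of arrays limits the precision.

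The 4 genes and the lists were chosen with earlier results of these data known. By rule the text names the 4 genes, the 5 genes nearest to each in profile, every called gene of a vessel list (the 4 largest in each direction where over 8 were called), a set of defining markers and the related actins and fatty acid binding proteins. Genes of the other cell lists, FABP7, VEGFA, GATA2, NRP2, CCL21, TGFBR3 and the genes called without the E50 arrays were named after their values were seen where the rule did not name them. Sequence features were not analysed here. Alternatives were quantile normalization, median centring, a floor of 16, all probe sets of a gene, a background filter, fits of 2 stages, a variance trend, a replicate block and leaving out each array.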

Additional observations from a re-analysis of the deposited data

How the results depend on the processing

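The 4 genes kept the direction of their differences between E50 and E60 and between E50 and E70 under every alternative run, as did ACTA2, LYVE1 and FABP4 between E60 and E70. The ENG difference between E60 and E70 was 0.010 after quantile normalization and ran from -0.34 without the last E70 array to 0.35 without the middle one (0.07 without the last E60 array). Median centring gave -2.43, -0.69, -0.85 and -1.38 for ENG, ACTA2, LYVE1 and FABP4 at E60 minus E50, and -2.54, -2.38, -2.62 and -5.42 at E70 minus E50. The mean over the 3 LYVE1 probe sets was -0.36 and -1.85 in these comparisons. Without single arrays the differences at E60 minus E50 ran from -3.51 to -2.86 for ENG, from -1.53 to -1.36 for ACTA2, from -1.77 to -1.49 for LYVE1 and from -2.22 to -2.08 for FABP4.

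Counts of calls depended more on the fit. For E60 minus E50 the 23 calls in the vessel lists became 6 with only these 2 stages, 9 with a replicate block, and 4 (without the first E60 array) to 29 (without the last E50 array) without single arrays, and the 4436 of all probe sets became 2087, 2811 and 1758 to 5975. Median centring left 19 vessel calls, but with 17 higher and 2 lower in place of 7 and 16, and 5590 over all probe sets with 4679 higher and 911 lower in place of 1884 and 2552. For E70 minus E60 the 3 vessel calls became 0 with median centring, 8 with only these 2 stages, 6 with a variance trend, 0 with the replicate block and 0 to 3 without single arrays. The 101 of all probe sets became 67, 420, 366, 9 and 30 to 149, and 172 with the background filter. For E70 minus E50 the 35 vessel calls became 13 with only these 2 stages, 30 with the replicate block and 22 to 47 without single arrays, and the 4510 of all probe sets became 1877, 2944 and 2252 to 6116. Median centring gave 31 vessel calls there, 19 higher and 12 lower in place of 7 and 28, and 16 of the 35 were lost with it. Of the vessel calls at E60 minus E50, 4 were kept in every fit without 1 array and 14 were lost with median centring. Deviations of same-numbered arrays correlated at -0.0211 to 0.0261 across probe sets. A shared litter or batch that moved few probe sets would not show in this measure, so it cannot decide whether arrays were paired. Background limits ENG and the dim LYVE1 probe sets.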
